A study of Bos taurus with 16 samples.

Results

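The genes described here encode the subunits of the oxidative phosphorylation system that are carried in the nucleus. A member was any array probe set with exactly 1 gene symbol in the platform annotation, where that symbol began with NDUF, SDHA, SDHB, SDHC, SDHD, UQCR, COX4, COX5, COX6, COX7, COX8 or ATP5. The rule used names only and no measured value, though it was set with earlier results of these data known. It gave 88 genes on 115 probe sets, out of 9155 named genes and 24016 probe sets without array controls. By complex these were 36 genes of complex I, 4 of complex II, 8 of complex III, 15 of complex IV and 17 of complex V, and the same name stems brought in 8 assembly factors, which help to build complexes I and II without staying in them. NDUFA4 and NDUFA4L2 were counted with complex IV, where the NDUFA4 protein is found.

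RNA was measured on 16 bovine Affymetrix arrays, 11 of endometrium brushed from the uterus of cows and 5 of blastocysts flushed from it. The 49 cows had been superovulated, and each gave a brush sample on day 0, at 2 h ahead of insemination, and another on day 7 when embryos were flushed. A sample with 0 polymorphonuclear cells counted as healthy endometrium (HE). One with any such cells counted as subclinical endometritis (SE), a uterine inflammation without outward signs. Status was set at each sampling, and which cows entered a pool is not stated in the sources used here, so pools of both days may share cows. Each array carried a pool of several donors' samples, with 10 embryos in a blastocyst pool, and the groups compared were day 0 HE (3 pools), day 0 SE (3), day 7 HE (2), day 7 SE (3), HE blastocysts (2) and SE blastocysts (3). All groups therefore share superovulation, pooling and 2 rounds of RNA amplification from 15 ng, and every p-value measures the spread between pools, not between cows.

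Oxidative phosphorylation takes electrons from NADH at complex I and from succinate at complex II, passes them through ubiquinone to complex III and through cytochrome c to complex IV, where oxygen is reduced. Complexes I, III and IV pump protons across the inner mitochondrial membrane, and complex V, the ATP synthase, uses the gradient to make ATP. Complex II is made wholly from nuclear genes and is also an enzyme of the tricarboxylic acid cycle. The other complexes join nuclear subunits with core subunits encoded in mitochondrial DNA, none of which the annotation named on this array. Between insemination and flushing a cow's endometrium passes from the time around ovulation into the luteal phase, in which progesterone governs its glands.

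Values are the deposited GCRMA signals on the log2 scale, so a difference of 1 is a doubling of signal. Median signals lay between 4.18 and 4.30 over the endometrium arrays and between 3.08 and 3.12 over the blastocyst arrays. A probe set was tested in a tissue when its log2 signal was above 4 on at least 2 of that tissue's arrays, which kept 98 of the 115 member probe sets in endometrium and 97 in blastocysts, for 84 of the 88 genes in each. Where a gene had several kept probe sets, the one with the highest mean stood for it. COX6A2, the isoform of subunit 6a known from heart and muscle, COX6B2, known from testis, and NDUFA4L2 passed the filter in neither tissue. COX7A1 did not pass in blastocysts, where it measured 2.21 on all 5 arrays, and the assembly factor NDUFAF6 did not pass in endometrium, where its highest value was 2.84. Endometrium carried 11 of 12 epithelial markers above the filter, KRT8 being the exception. It also carried 11 of 13 stromal, 10 of 12 macrophage, 5 of 7 neutrophil and 8 of 14 lymphocyte markers above it. Of 6 trophectoderm markers on the array, 5 were above the filter in the embryos, all but ELF5, and 3 in endometrium (ELF5, KRT18 and TEAD4). Of 4 inner cell mass and hypoblast markers, 3 were above it in the embryos, all but GATA4, and 0 in endometrium. IFNT2 and POU5F1 were among those above it in the embryos only. In the embryos 0 of 12 macrophage and 0 of 7 neutrophil markers passed, and 3 of 14 lymphocyte markers (GZMB, LCK and ZAP70), 2 of 7 endothelial markers (PECAM1 and TEK) and 5 of 13 stromal markers did.

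Day 7 was first compared with day 0 within each health group. The greater share of oxidative phosphorylation genes was higher on day 7. In HE endometrium 48 of 98 member probe sets rose and 4 fell by limma's moderated test at an adjusted p under 0.05. The endometrium changed widely over these days: 45.0% of all 13421 probe sets passed in HE, 21.8% higher and 23.2% lower. In SE endometrium 69 of 98 rose and 1 fell, where 50.1% of all probe sets passed, 26.0% higher and 24.1% lower. By gene, 39 of 84 rose and 4 fell in HE, and 61 rose and 1 fell in SE. Of all 6810 genes, 1460 rose and 1791 fell in HE (47.7% passed), and 1802 rose and 1791 fell in SE (52.8%). In HE the share that passed in either direction was 47.2% in complex I, 50% in III and IV and 47.1% in V, near that of all genes. It was 75% in complex II and 71.4% among assembly factors. In SE it was 69.4%, 75%, 87.5%, 91.7% and 70.6% in complexes I to V, and 57.1% among assembly factors. The median member gene differed by 0.42 in HE and 0.57 in SE on the log2 scale, beside medians of -0.09 and -0.02 over all 6810 genes tested. The HE comparison set 2 day 7 pools against 3, and leaving out day 7 HE replicate 1 brought its count to 27 (25 higher, 2 lower), when 4801 of 13364 probe sets passed in all. A brush holds several cell types, and in such bulk samples fewer cells of a type and less RNA per cell cannot be told apart.

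**Figure D1:**
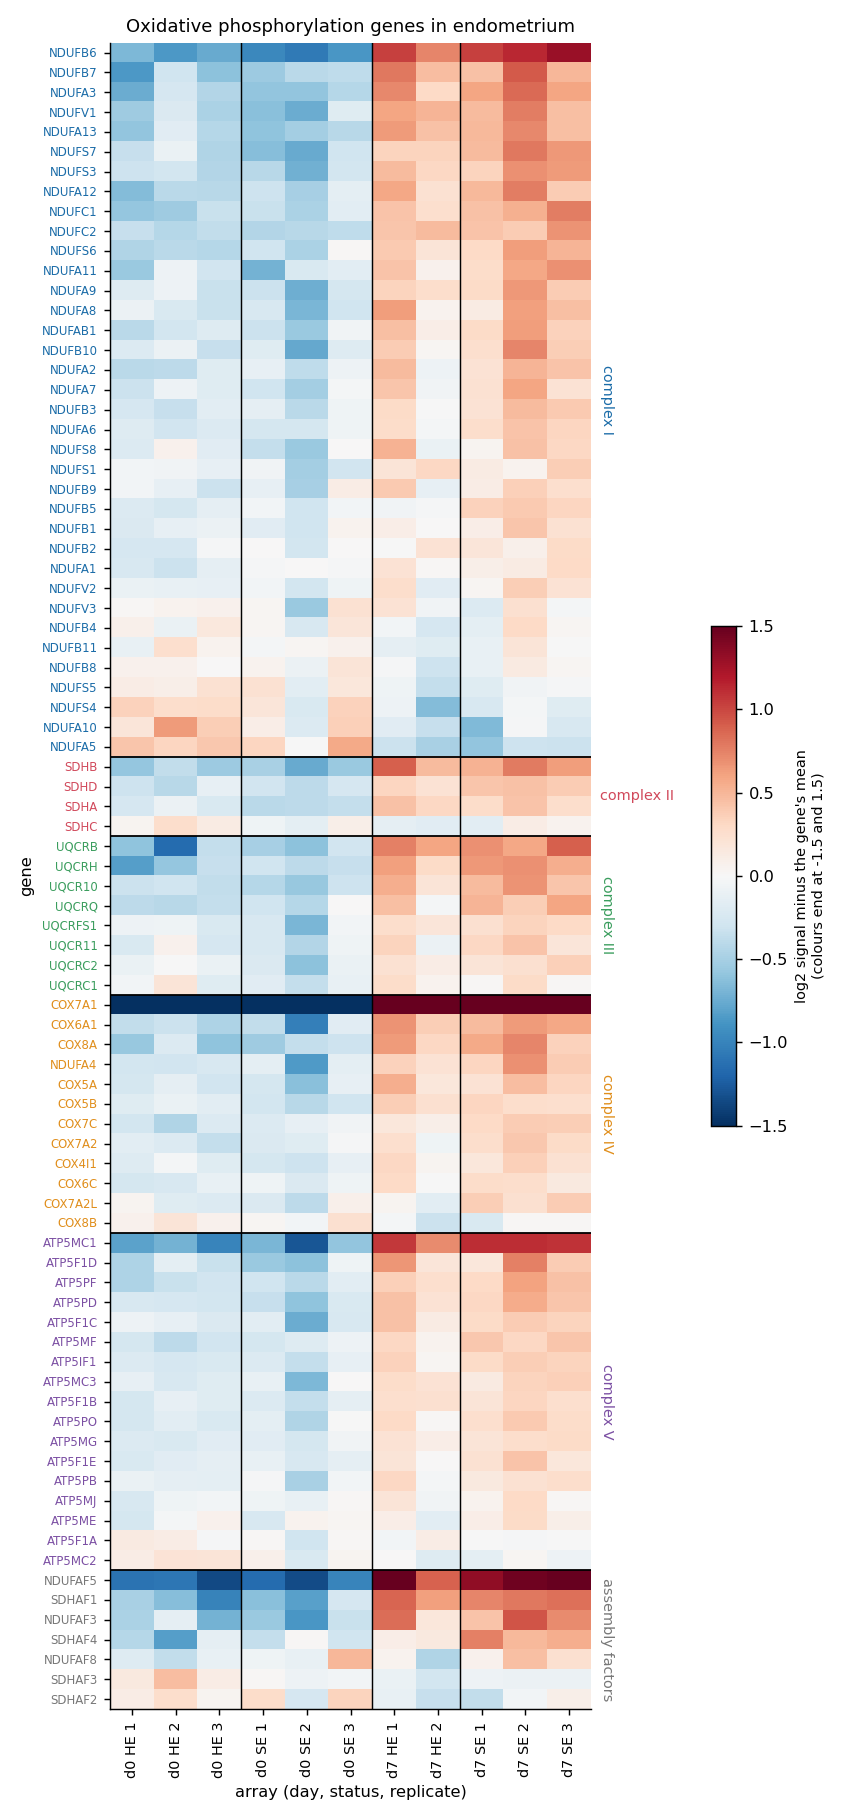
Signals of the 84 measured member genes (rows, grouped by complex and ordered by their change within it) on the 11 endometrium arrays (columns), as log2 signal minus the gene's mean over these arrays, with colours ending at -1.5 and 1.5. Most rows turn from blue on day 0 to red on day 7, COX7A1 lies beyond the colour range throughout, and the lowest rows of complex I, among them NDUFA5, NDUFA10 and NDUFS4, run the other way.

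Cell type markers moved over the same days. Of 11 measured epithelial markers, 1 rose and 6 fell in HE, and 1 rose and 9 fell in SE; their summed log2 signal ran from 121.6 to 127.7 on day 0 and from 108.0 to 112.3 on day 7. Of 8 lymphocyte markers, 4 rose in HE and 5 in SE, with sums of 46.9 to 55.9 on day 0 and 49.0 to 64.1 on day 7. Of 10 macrophage markers, 4 rose and 1 fell in HE, and 2 rose and 1 fell in SE, with sums of 50.5 to 57.0 and 53.7 to 66.8. Of 5 neutrophil markers 0 rose, and 1 fell in HE and 2 in SE, with sums of 36.3 to 58.3 and 32.2 to 40.3. Of 11 stromal markers, 1 rose in HE, and 1 rose and 1 fell in SE. Of 3 ciliated cell markers, 0 passed in HE and 1 fell in SE. CLDN5, the only endothelial marker that passed the filter, rose in both groups. It measured 2.35 to 2.42 on day 0 and 4.90 to 7.20 on day 7. The GAPDH controls, whose 3' minus 5' difference reads RNA integrity, gave 0.03 to 0.14 on 5 of the 6 day 0 arrays, 0.58 on day 0 SE replicate 2, and 0.22 to 0.57 on day 7. The other controls of this kind overlapped between the days. Actin gave -0.44 to -0.34 on day 0 and -0.48 to -0.44 on day 7. Cyclophilin gave 0.64 to 1.17 and 0.85 to 1.23, and EIF4E 3.70 to 4.27 and 3.67 to 4.52. The part of these shifts in the results that follow was not tested.

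In complex I, which takes electrons from NADH, 14 of 36 genes rose and 3 fell in HE, and 24 rose and 1 fell in SE. The catalytic core includes NDUFV1, which binds NADH and FMN, NDUFS1, NDUFS7 and NDUFS8 along the path of electrons to ubiquinone, and NDUFS3. Of the 6 core genes on the array, 3 rose in HE and 5 in SE. NDUFV1 measured 9.43, 9.74 and 9.48 in the day 0 HE pools and 10.56 and 10.47 in the day 7 HE pools. In SE it measured 9.34, 9.21 and 9.78 on day 0 and 10.44, 10.72 and 10.41 on day 7. Every day 7 pool was above every day 0 pool, and the differences were 0.96 (SE 0.20, adjusted p = 0.00296) and 1.08 (SE 0.18, adjusted p = 0.000602). NDUFS3 rose by 0.74 in HE and 1.02 in SE, and its second, dimmer probe set by 1.38 and 1.97. NDUFS7 rose by 0.63 in HE and 1.20 in SE. NDUFV2, the core partner of NDUFV1, passed in neither group, at 0.16 and 0.33. NDUFS1 differed by 0.33 in HE, which did not pass, and rose by 0.47 in SE. The HE call of NDUFS3 was lost without day 7 HE replicate 1 (adjusted p = 0.0527), that of NDUFS7 without either day 7 HE pool or day 0 HE replicate 3 (adjusted p up to 0.076), and the SE call of NDUFS1 without day 0 SE replicate 2 or 3 or day 7 SE replicate 3 (up to 0.0954). The difference of NDUFV2 in HE turned to -0.05 without day 7 HE replicate 1.

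Among the accessory subunits of complex I, which surround the core, 11 of 30 rose and 3 fell in HE, and 19 rose and 1 fell in SE. NDUFB6, a subunit of the membrane arm, showed the greatest rise. It measured 11.32, 11.13 and 11.23 on day 0 and 13.01 and 12.72 on day 7 in HE, and 11.02, 10.92 and 11.11 on day 0 and 13.01, 13.11 and 13.28 on day 7 in SE. The days did not overlap, and the rises were 1.64 (SE 0.15, adjusted p = 2.08e-05) and 2.12 (SE 0.14, adjusted p = 1.47e-06). NDUFB7 (1.22 in HE, 1.07 in SE), NDUFA3 (0.98, 1.21), NDUFA13 (0.93, 1.06) and NDUFC2 (0.83, 0.91) rose in both groups. NDUFAB1, the mitochondrial acyl carrier protein that also sits in complex I, rose by 0.57 and 0.73. Of these 6 genes only NDUFAB1 had a call that a left-out pool ended, in HE without day 7 replicate 1 or day 0 replicate 1 or 2 (adjusted p up to 0.223).

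The genes that fell were all but 1 in complex I. NDUFA5, an accessory subunit of the peripheral arm, fell by 0.78 in HE and by 0.71 in SE on its brightest probe set, which measured 11.50 to 12.07 on day 0 and 10.91 to 11.19 on day 7. Its other probe sets did not follow: one differed by -0.04 and 0.02 at a signal near 10, the other by 0.26 and 0.23 at a signal near 4, and the mean over the 3 probe sets, at -0.19 and -0.15, did not pass in either group. Without day 7 HE replicate 2 the HE call of the brightest probe set was lost (adjusted p = 0.0504). NDUFS4, an accessory subunit needed for a stable NADH-binding module, fell by 0.66 in HE (adjusted p = 0.0289) and differed by -0.25 in SE. NDUFA10 fell by 0.65 in HE (adjusted p = 0.0435) and differed by -0.39 in SE. The NDUFS4 call was lost without any 1 of the 3 day 0 HE pools or without day 7 HE replicate 2 (adjusted p up to 0.267), and the NDUFA10 call without either day 7 HE pool, without day 0 HE replicate 2 or 3, or when no filter was applied (up to 0.192 over the left-out pools). These HE differences in NDUFS4 and NDUFA10 were not shown to differ from those in SE.

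In complex II, which oxidises succinate, 3 of 4 genes rose in both health groups. SDHB, the iron-sulphur subunit, measured 11.51, 11.72 and 11.55 on day 0 and 12.99 and 12.56 on day 7 in HE, and 11.61, 11.34 and 11.54 on day 0 and 12.61, 12.87 and 12.72 on day 7 in SE. The days did not overlap, and SDHB rose by 1.18 (SE 0.17, adjusted p = 0.000359) in HE and 1.24 (SE 0.15, adjusted p = 9.81e-05) in SE. SDHA, the flavoprotein, rose by 0.56 and 0.71. SDHD, the small membrane anchor, rose by 0.55 and 0.73. SDHC, the large anchor, did not pass: it measured 12.67, 12.89 and 12.75 on day 0 and 12.49 and 12.45 on day 7 in HE, a difference of -0.30, and differed by 0.04 in SE, where it was -0.01 without day 0 SE replicate 2 or day 7 SE replicate 2. The HE call of SDHD was lost without day 7 HE replicate 1 (adjusted p = 0.0601).

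In complex III, which passes electrons from ubiquinol to cytochrome c, 4 of 8 genes rose in HE and 7 in SE, and none fell. The 4 that rose in HE were all among the 5 small subunits: UQCRB, UQCRH, UQCR10 and UQCRQ. UQCRB, a ubiquinone-binding subunit, measured 11.82, 11.26 and 12.07 on day 0 and 13.18 and 13.01 on day 7 in HE, and 11.93, 11.81 and 12.14 on day 0 and 13.10, 13.00 and 13.31 on day 7 in SE. Its rise was 1.38 (SE 0.23, adjusted p = 0.000843) in HE and 1.18 (SE 0.20, adjusted p = 0.000897) in SE, and a second probe set rose by 1.71 and 1.76. UQCRH, the hinge subunit next to cytochrome c1, rose by 1.04 and 0.98. UQCR10 rose by 0.70 and 0.96. UQCRFS1, the Rieske iron-sulphur subunit, and the core protein UQCRC2 did not pass in HE, at 0.35 and 0.24, and rose in SE by 0.61 and 0.58. UQCRC1, the other core protein, passed in neither, at 0.17 and 0.32. The HE call of UQCR10 was lost without day 7 HE replicate 1 (adjusted p = 0.0539), and that of UQCRQ without it or day 0 HE replicate 1 or 2 (up to 0.216).

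In complex IV, the cytochrome c oxidase, 6 of 12 measured genes rose in HE and 11 in SE, and none fell. COX7A1, the isoform of subunit 7a known as that of heart and skeletal muscle, showed by far the greatest difference of any member. It measured 5.35, 5.52 and 6.28 in day 0 HE and 12.08 and 11.45 in day 7 HE. In SE it measured 5.87, 6.28 and 5.75 on day 0 and 12.33, 12.15 and 11.87 on day 7. The days were far apart in both groups, with a rise of 6.05 (SE 0.31, adjusted p = 6.15e-07, 66.4-fold) in HE and 6.15 (SE 0.27, adjusted p = 1.79e-07, 71.0-fold) in SE.

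COX7A2, the isoform of the same subunit found in most tissues, measured 12.51 to 12.71 in day 0 HE and 13.12 and 12.80 in day 7 HE, a difference of 0.34 that did not pass, and rose by 0.45 in SE, a call lost without day 0 SE replicate 1 or day 7 SE replicate 2 (adjusted p up to 0.0582). COX7A1 is best known from muscle, so muscle genes were looked at beside it in a list chosen after these values were seen. Of its 9 genes on the array, 5 were above the filter in endometrium; MYH11, DES, CNN1 and MB were not. Of the 5, none rose past the threshold, and ACTA2, smooth muscle actin, fell by 2.54 in HE and 2.70 in SE. The rest did not pass: CKM differed by 0.80 in HE and 0.55 in SE, MYLK by 0.35 and 0.87, TAGLN by 0.07 and -0.27, and TPM2 by -0.18 in both. Whether muscle cells have a part in the COX7A1 signal was not tested. Levels of different probe sets cannot be set against each other, so the COX7A isoforms are compared by their changes only.

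**Figure D2:**
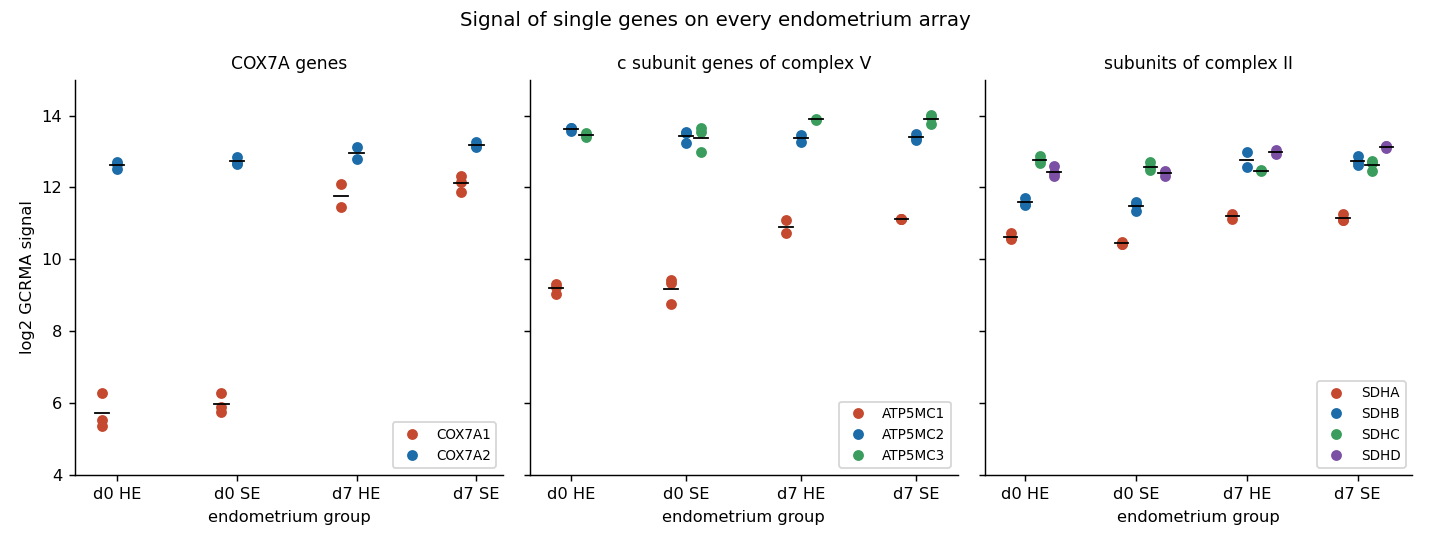
Log2 GCRMA signal of single genes on every endometrium array (points) with group means (bars), by day and health group, for the COX7A isoforms, the c subunit genes of complex V and the subunits of complex II. COX7A1 and ATP5MC1 move up between day 0 and day 7 on all arrays while COX7A2 and ATP5MC2 stay within 1 log2 unit over all 11; heights of different genes are not comparable.

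The other subunits of complex IV changed by less. COX8A, the common isoform of subunit 8, rose by 0.93 (SE 0.19, adjusted p = 0.0026) in HE and 0.95 (SE 0.17, adjusted p = 0.000986) in SE. COX6A1, the common isoform of subunit 6a, rose by 0.90 and 1.08. COX5A and COX5B, which dock on the catalytic core, rose by 0.59 and 0.46 in HE and by 0.68 and 0.61 in SE. COX4I1, the largest nuclear subunit, differed by 0.31 in HE and rose by 0.48 in SE, and NDUFA4 differed by 0.55 in HE and rose by 0.84 in SE. COX7A2L, which takes part in joining complexes III and IV, differed by 0.06 in HE and rose by 0.51 in SE. COX8B, the muscle type of subunit 8, could not be given a direction: its brighter probe set differed by -0.28 and -0.14, and its dimmer one, at 2.59 to 4.67 on day 0 and above that, up to 5.52, on day 7, rose by 1.54 in HE and differed by 1.11 in SE. Without day 7 HE replicate 1 the HE calls of COX5A, COX5B, COX6A1 and the dimmer COX8B probe set were lost (adjusted p = 0.2, 0.0926, 0.0768 and 0.179). That of COX5A was also lost without day 0 HE replicate 1 or 3, and that of COX8B without day 0 HE replicate 1 or day 7 HE replicate 2; its SE difference passed without day 0 SE replicate 2 (adjusted p = 0.0439). The SE call of COX7A2L was lost without day 0 SE replicate 1 or 2 or day 7 SE replicate 3 (up to 0.0573), and its HE difference turned to -0.04 without day 7 HE replicate 1.

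In complex V, the ATP synthase, 8 of 17 genes rose in HE and 12 in SE, and none fell. ATP5MC1, ATP5MC2 and ATP5MC3 encode precursors of the same mature c subunit, of which the rotor ring in the membrane is built. ATP5MC1 measured 9.23, 9.32 and 9.04 on day 0 and 11.08 and 10.74 on day 7 in HE, and 9.34, 8.75 and 9.43 on day 0 and 11.13, 11.13 and 11.11 on day 7 in SE. It rose by 1.71 (SE 0.21, adjusted p = 0.000137) and 1.95 (SE 0.19, adjusted p = 2.07e-05), with no overlap of the days. ATP5MC2 differed by -0.27 in HE and -0.03 in SE, and passed in neither. ATP5MC3 differed by 0.43 in HE and rose by 0.53 in SE, a call lost without day 0 SE replicate 2 or day 7 SE replicate 2 or 3 (adjusted p up to 0.0877). The SE difference of ATP5MC2 turned sign without any of 3 pools, reaching 0.03.

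Of the 5 genes of the catalytic head of complex V, 2 rose in HE and 4 in SE. ATP5F1B, the beta subunit that holds the catalytic sites, rose by 0.43 and 0.48. ATP5F1A, the alpha subunit beside it, differed by -0.04 and 0.08 and passed in neither. Of the 4 peripheral stalk genes, which hold the head still, 2 rose in HE and 3 in SE. ATP5PO, the stalk subunit that joins it to the head, differed by 0.38 in HE and rose by 0.51 in SE, a call lost without day 7 SE replicate 2 (adjusted p = 0.0517). ATP5IF1, the inhibitor of ATP hydrolysis by the enzyme, rose by 0.42 (adjusted p = 0.0368) and 0.56. ATP5MG, a small membrane subunit, rose by 0.36 and 0.41 on its brighter probe set and by 1.61 and 1.79 on its other one, so the size of its rise is uncertain. The HE call of the brighter ATP5MG probe set was lost without any single HE pool (adjusted p from 0.0747 to 0.194). That of ATP5IF1 was lost without day 7 HE replicate 1 or any day 0 HE pool (up to 0.264), and that of ATP5F1B without either day 7 HE pool or day 0 HE replicate 1 (up to 0.0859). The differences of ATP5F1A turned sign without day 7 HE replicate 1 in HE (0.04) and without day 0 SE replicate 2 in SE (-0.03).

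Of 7 measured assembly factors, 4 rose in both groups. NDUFAF5, which modifies NDUFS7 during the building of complex I, measured 6.86, 6.88 and 6.61 on day 0 and 9.52 and 8.85 on day 7 in HE, and 6.81, 6.62 and 6.97 on day 0 and 9.29, 9.43 and 9.78 on day 7 in SE. Its rise of 2.40 (SE 0.23, adjusted p = 2.42e-05) and 2.70 (SE 0.20, adjusted p = 3.84e-06) was the greatest after COX7A1, and a second probe set rose by 2.25 and 2.90. SDHAF1, which helps iron-sulphur clusters into SDHB, rose by 1.45 and 1.34, and by 2.15 and 1.92 on its other probe set. NDUFAF3, another builder of complex I, rose by 0.95 and 1.28. SDHAF4, which binds free SDHA, rose by 0.58 (adjusted p = 0.0476) and 0.81. SDHAF3 fell by 0.43 in HE at a dim signal, from 5.13, 5.47 and 5.16 to 4.91 and 4.74, and differed by -0.05 in SE. Without day 7 HE replicate 1 the HE calls of NDUFAF3, SDHAF4 and SDHAF3 were lost (adjusted p = 0.146, 0.127 and 0.0612), and those of SDHAF4 and SDHAF3 also without day 7 HE replicate 2 or day 0 HE replicate 1 or 2 (up to 0.166 and 0.203).

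The day changes were set side by side in the health groups. All 39 genes that rose in HE also rose in SE, where they made up 63.9% of the 61, and NDUFA5 fell in both. The signed difference of day 7 minus day 0 was higher in SE for 75 of 84 genes, beside 4227 of all 6810 (62.1%), and this count includes genes such as NDUFA5 and NDUFS4 that were less far below 0 in SE. Both columns come from 1 fit but from separate pools. The difference between these changes was tested as the interaction of status and day: 0 of 98 member probe sets passed, as did 0% of all 13421, and 2 genes had an unadjusted p under 0.05 in limma, NDUFS7 (0.57) and NDUFB6 (0.48), beside 265 of all 6810. The median interaction was 0.16 over member genes and 0.09 over all genes. It ranged from 0.03 without day 7 HE replicate 2 to 0.30 without day 7 HE replicate 1, so the larger counts in SE are not shown to be a difference between health groups.

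**Figure D3:**
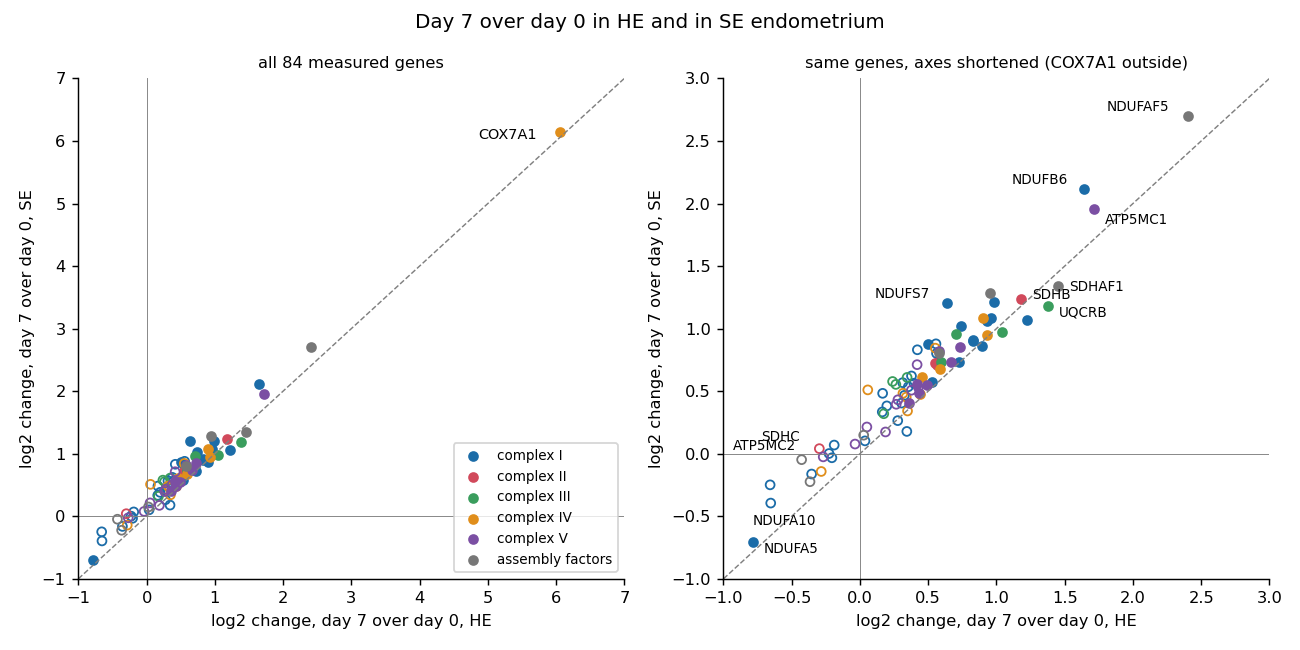
Log2 change from day 0 to day 7 in HE (horizontal) and SE (vertical) endometrium for the 84 measured member genes, coloured by complex, filled where the gene passed in both groups, with the line of equal change dashed; the right panel shows the same points on shorter axes. COX7A1 stands apart at 6.05 and 6.15, and 75 of the points lie above the line.

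Each complex was also averaged over its genes on every array, after subtracting each gene's mean over the 11 endometrium arrays. Complex IV stood at -0.44 ± 0.03 (SD, n = 3) in day 0 HE, -0.45 ± 0.13 (n = 3) in day 0 SE, 0.45 ± 0.20 (n = 2) in day 7 HE and 0.59 ± 0.06 (n = 3) in day 7 SE, COX7A1 included. That gene alone moved far beyond the others, and by the median change of its genes complex IV (0.45 in HE, 0.56 in SE) lay below complex II (0.56, 0.72) and complex III (0.47, 0.67). Complex I stood at -0.20 ± 0.05, -0.24 ± 0.17, 0.18 ± 0.18 and 0.32 ± 0.13 in the same order. Complex III stood at -0.29 ± 0.03, -0.32 ± 0.18, 0.30 ± 0.19 and 0.42 ± 0.03. For every complex the lowest day 7 array lay above the highest day 0 array, while HE and SE overlapped on both days. Among all members the lowest mean was that of day 0 SE replicate 2, at -0.46, and among the day 7 pools that of HE replicate 2, at 0.12. Day 0 SE replicate 2 was also the array least like the others of its day, with a mean correlation over probe sets of 0.961 against 0.975 to 0.979 for the rest.

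**Figure D4:**
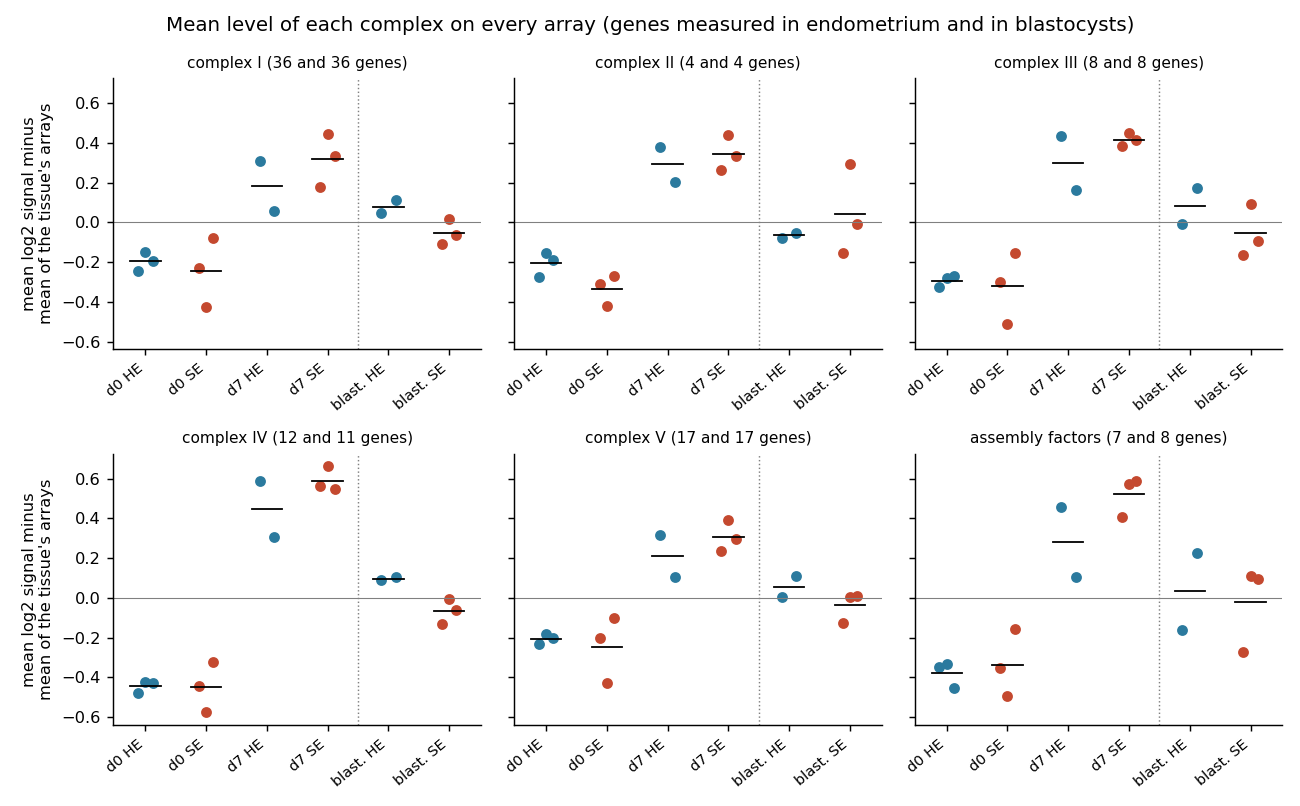
Mean over the genes of each complex of the log2 signal minus the gene's mean over its tissue's arrays, for each array (points) and group (bars), HE blue and SE red; the dotted line divides endometrium from blastocysts, which are centred apart and not comparable in level. Days separate in all 6 panels while the health groups overlap on each day; in blastocysts the HE points lie above the SE points in complexes I and IV.

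Lists of related mitochondrial genes were read from the same fit, in which 47.7% of all genes passed in HE and 52.8% in SE. In HE the share that passed was 60% for the tricarboxylic acid cycle list and between 44.4% and 50% for the others, near that of all genes; in SE it ran from 55.6% to 80%. Of 15 measured genes of the tricarboxylic acid cycle and pyruvate dehydrogenase, 7 rose and 2 fell in HE, and 10 rose and 2 fell in SE. OGDH, a subunit of the 2-oxoglutarate dehydrogenase of that cycle, rose by 3.65 and 3.79. Of 26 assembly and maturation factors with other name stems, 7 rose and 5 fell in HE and 14 rose and 3 fell in SE. COX15, which takes part in making the haem of complex IV, fell by 2.01 and 1.99. Of 16 carriers and membrane proteins of mitochondria, 5 rose and 3 fell in HE and 8 rose and 2 fell in SE.

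Of 8 genes that feed electrons to ubiquinone or carry them by cytochrome c, 2 rose and 2 fell in HE and 3 rose and 2 fell in SE. The movers ran opposite ways. PRODH, proline dehydrogenase, rose from 2.57 to 11.34 in HE and from 2.14 to 11.45 in SE. GPD2, the glycerol-3-phosphate dehydrogenase of mitochondria, fell from 8.37 to 3.15 and from 7.44 to 2.74. SQOR, which oxidises sulphide, fell by 2.06 and 2.49. Of 9 measured regulators of mitochondrial biogenesis and mitochondrial DNA, 3 rose and 1 fell in HE and 5 rose in SE. PPARGC1A, a coactivator known to raise oxidative phosphorylation genes, rose from 2.31 to 7.78 and from 2.37 to 7.63. The day 0 signals of PRODH and PPARGC1A and the day 7 signals of GPD2 lay below the filter of 4, so no fold is given for them.

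SE was compared with HE on day 0, to ask what marked an inflamed uterus at insemination. No member passed: 0 of 98 probe sets in limma, where 3 of 13421 (0.0224%) did, and 0 of 84 genes had an unadjusted p under 0.05, beside 480 of all 6810. The median member gene differed by -0.05, as did the median of all genes. In SE 31 of 84 (36.9%) were higher, beside 39.9% of all genes. Each SE pool lay above each HE pool for 4 of 98 member probe sets, against 3.58% of all probe sets, and below for 6, against 9.24%. Leaving out day 0 SE replicate 2 turned the median to 0.06, with 53 of 84 genes higher in SE. The EIF4E control separated the day 0 groups, with a 3' minus 5' difference of 3.70 to 3.85 in HE and 3.88 to 4.27 in SE. GAPDH, actin and cyclophilin controls overlapped. The part of the EIF4E control in the member values was not tested.

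The members of smallest p on day 0 are given as values. SDHA measured 10.57, 10.73 and 10.60 in HE and 10.43, 10.43 and 10.47 in SE, a difference of -0.19 (SE 0.12, adjusted p = 0.738) with no overlap. COX5B differed by -0.19, NDUFA1, a small membrane subunit of complex I, by 0.22, and SDHAF3 by -0.27, all without overlap. The difference of SDHAF3 was -0.16 without HE replicate 2. The dimmer probe set of UQCRC2 differed by 0.32 with overlap (0.16 without HE replicate 3), and its brighter one by -0.25 (-0.096 without SE replicate 2). Neutrophil markers had a median difference of 2.33 between these groups, with 0 of 5 past the threshold. Their summed log2 signal ran from 36.3 to 48.9 in HE and from 46.0 to 58.3 in SE. Sums of the 10 macrophage markers did not overlap, at 50.5 to 52.9 in HE and 56.1 to 57.0 in SE. Those of the 3 ciliated cell markers did not either, at 17.5 to 19.9 in HE and 20.9 to 24.9 in SE. Again 0 markers of these lists passed. Sums of the epithelial, stromal and lymphocyte markers overlapped. The part of any of these markers in the member values was not tested.

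On day 7, 0 of 98 member probe sets passed between SE and HE, as did 0% of 13421, and 3 of 84 genes had an unadjusted p under 0.05 in limma, beside 189 of all 6810. The members lay slightly higher in SE: 73 of 84 genes were higher, beside 56.8% of all genes, with a median of 0.14 beside 0.03. Each SE pool lay above each HE pool for 18 of 98 member probe sets, against 7.93% of all, and below for 0, against 8.33%. Summed log2 signals of the 11 epithelial markers also separated these groups, at 111.0 and 112.3 in HE and 108.0 to 108.6 in SE. Their median difference was -0.29, with 0 of 11 past the threshold. The EIF4E control separated the groups too, with a 3' minus 5' difference of 3.91 and 3.67 in HE and 4.05 to 4.52 in SE. GAPDH, actin and cyclophilin controls overlapped. The part of the markers and of the EIF4E control in the member values was not tested. The higher position of the members rested on 1 of the 2 HE pools. Without HE replicate 2 the median was -0.0017 and 42 of 84 genes were higher in SE, and without HE replicate 1 the median was 0.25.

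NDUFB5, an accessory subunit of the membrane arm of complex I, had the smallest p on day 7. It measured 10.55 and 10.58 in HE and 10.94, 10.98 and 10.92 in SE, a difference of 0.39 (SE 0.13, adjusted p = 1.00). COX7A2L measured 10.97 and 10.78 in HE and 11.31, 11.18 and 11.32 in SE, also a difference of 0.39. SDHAF4 differed by 0.48, the dimmer probe set of NDUFAF5 by 0.55 and that of COX6A1 by 0.46, which was 0.22 without HE replicate 1 and 0.71 without HE replicate 2. In each of these the SE pools lay above the HE pools without passing the test.

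In blastocysts the same contrast asked whether embryos from SE donors differed from those of HE donors. No member passed: 0 of 97 probe sets, as did 0% of 11014, and 8 of 84 genes had an unadjusted p under 0.05 in limma, beside 476 of all 5732. The members lay slightly lower in SE embryos. Of 84 genes 26 were higher, beside 49.98% of all genes, and the median was -0.14, beside 0.00 over all genes. Each SE pool lay above each HE pool for 8 of 97 member probe sets, against 12.4% of all, and below for 30, against 12.6%. Leaving out each pool in turn gave medians between -0.17 and -0.09. The GAPDH control and some marker lists moved with the same groups. Actin, cyclophilin and EIF4E controls overlapped between HE and SE embryos, and only GAPDH separated them. The GAPDH 3' minus 5' difference was 5.11 and 4.97 in HE embryos and 5.73, 5.47 and 5.85 in SE embryos. These GAPDH values did not overlap and lay far above endometrium. Summed log2 signals of the 10 measured epithelial markers were 87.8 and 88.9 in HE and 91.0 to 95.4 in SE, also without overlap, though 0 of 10 passed. Those of 3 inner cell mass and hypoblast markers lay lower in SE (32.29 and 32.33 in HE, 30.37 to 32.24 in SE), with 0 of 3 past the threshold. Those of 5 trophectoderm markers overlapped (45.5 and 46.6 in HE, 43.2 to 48.2 in SE). Their part in the member values was not tested. By complex, the median was -0.18 for complex I, -0.16 for complex III, -0.14 for complex IV, -0.01 for complex V and 0.10 for complex II, in which 3 of 4 genes were higher.

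ATP5ME, a small membrane subunit of the ATP synthase, measured 12.84 and 13.03 in HE embryos and 12.16, 12.22 and 12.44 in SE embryos, a difference of -0.66 (SE 0.15, adjusted p = 0.403). NDUFA3 measured 10.81 and 10.84 in HE and 10.29, 9.98 and 10.36 in SE, a difference of -0.62 (SE 0.17, adjusted p = 0.432). UQCR10 differed by -0.44 and NDUFB9 by -0.43. The groups did not overlap for these 4 genes. COX6C, a small subunit of complex IV, gave readings that differed in size: its bright probe set measured 12.50 and 12.23 in HE and 12.43, 12.43 and 12.39 in SE, and a second one 4.38 and 2.72 in HE and 6.30, 6.46 and 7.15 in SE, a difference of 3.09 (SE 0.59, adjusted p = 0.401). Since the bright probe set overlapped between the groups, the second one gives no level for the gene as a whole. The largest difference among assembly factors, -0.88 for SDHAF3, came from 1 pool: HE replicate 2 measured 7.43 where the other 4 arrays lay between 4.85 and 5.39, and without it the difference was 0.41.

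**Figure D5:**
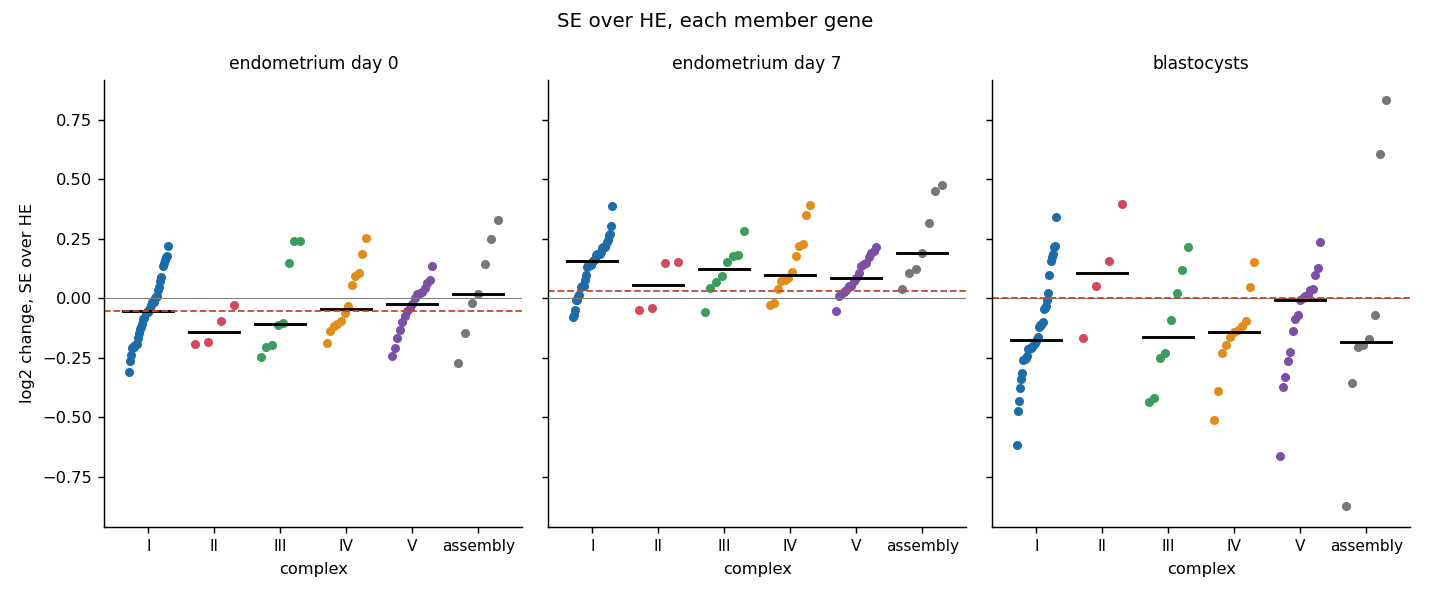
Log2 difference of SE over HE for each measured member gene (points) by complex, in day 0 endometrium, day 7 endometrium and blastocysts, with the median of each complex as a black bar and the median of all genes as a dashed red line. No point passed the test; medians lie near the line on day 0, above it on day 7, and in blastocysts above it for complex II, close to it for complex V and below it for complexes I, III and IV and the assembly factors.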

How the data were processed

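The deposited values were GCRMA signals on the log2 scale, 1 per probe set and array, made by the authors. GCRMA and limma stand in the submitters' processing notes without a version or a role. No source used here says whether both tissues were normalized together. So no level was compared between tissues. Of the 24128 probe sets, 112 were array controls, and of the rest 13292 had 1 gene symbol, 86 several and 10638 none in the platform annotation.

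Samples were grouped by the labels' tissue, health status and day. The titles of HE blastocyst replicates 1 and 2 name them as pools 2 and 3, and the protocol speaks of 3 pools in each group. Probe sets entered a tissue's fit if 2 or more of its arrays showed a log2 signal exceeding 4. Group means were fitted in limma 3.58.1 (R 4.3.3), with eBayes without trend, in 1 fit for the 11 endometrium arrays (7 residual degrees of freedom) and 1 for the 5 blastocyst arrays (3). All p-values are two-sided with Benjamini-Hochberg adjustment over all kept probe sets, controls left out, and the threshold was 0.05. Every adjusted p comes from these fits. The number of arrays limits the precision. Figures were drawn with matplotlib 3.10.9.

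The members and the lists were chosen with earlier results of these data known. Members were named as the 8 greatest rises and 8 greatest falls among those passing in a contrast (the 5 of smallest p where fewer than 5 passed), the greatest change of each complex, and a set chosen by role. Genes of related lists were named by size, at most 3 in each direction. NDUFS7, NDUFB7, NDUFA3, NDUFA13, NDUFC2, UQCRH, UQCR10, UQCRQ, NDUFAF3, SDHAF4 and the genes described as opposite in both tissues were named, and the muscle list made, after their values were seen. Alternatives were no filter, a filter above 5, the replicate number as a block, a further quantile normalization, array weights, an intensity trend, only the arrays compared, gene means over probe sets, and leaving out each pool in turn. Promoter and protein sequences were not used here.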

Additional observations from a re-analysis of the deposited data

Results flagged for a closer look

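The same probe set stood for 81 member genes in both tissues. In 3 of them SE over HE ran opposite ways in day 7 endometrium and in blastocysts. Each SE pool lay above each HE pool in the first and below each in the second. Over all 5158 genes with the same probe set in both tissues, 78 ran in that direction and 34 in the reverse. Together these were 112 (2.17%), against 3 and 0 of the members (3.7%). The members' share is near the background, and 3 genes are too few to set them apart from all genes. COX7C, a small subunit of complex IV, differed by 0.23 in endometrium and -0.51 in blastocysts, so that the blastocyst difference minus the endometrium difference was -0.74. ATP5MF, a small membrane subunit of complex V, differed by 0.20 and -0.33, a gap of -0.53. COX7A2 differed by 0.22 and -0.14, a gap of -0.36. By limma the adjusted p was 1.00 for each in endometrium and 0.478, 0.545 and 0.663 in blastocysts. Without day 7 HE replicate 2 the endometrium difference was 0.067 for ATP5MF and 0.061 for COX7A2, so these rest on 1 pool. The difference between tissues was not tested, and HE had 2 pools in each.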

How the results depend on the processing

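Of the counts of member probe sets that passed, 83 of 84 stayed within 1.5 times the reported one. These include the comparisons of status and the interaction, where 0 stayed 0, so the 1.5-fold range bears only on the counts by day. The 1 count outside it was that of HE by day without day 7 HE replicate 1. Over the settings other than leaving out a pool (8, or 7 for the interaction and blastocysts) the count lay between 43 and 62 in HE by day and between 61 and 71 in SE, highest with an intensity trend in both, and was 0 in the comparisons of status and the interaction. Leaving out a pool gave 27 (without day 7 HE replicate 1) to 43 in HE and 60 to 69 in SE. Over the same left-out pools the median member change by day ran from 0.30 to 0.55 in HE and from 0.49 to 0.65 in SE, the median interaction from 0.030 to 0.30, and the median of SE over HE on day 7 from -0.0017 to 0.25.

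Single member values kept direction and side of the threshold in 2004 cases, lost it in 87 (63 with a pool left out), gained it in 10 and turned sign in 24 (15 with a pool left out). With gene means, UQCRC2 on day 0 was 0.036, COX8B by day 0.63 in HE and 0.48 in SE, and the probe sets of NDUFA5 that had differed little or risen -0.19 in HE and -0.15 in SE. With further quantile normalization SDHC by day in SE was -0.016 and the NDUFA5 probe set near 10 was -0.019. With a pool left out, changes by day in HE ran from -0.11 to 0.039 for ATP5F1A, -0.041 to 0.16 for COX7A2L, -0.055 to 0.38 for NDUFV2 and -0.13 to 0.074 for that NDUFA5 probe set. In SE they ran from -0.030 to 0.13 for ATP5F1A, -0.12 to 0.030 for ATP5MC2, -0.014 to 0.12 for SDHC and -0.017 to 0.078 for that NDUFA5 probe set. In blastocysts SE over HE ran from -0.090 to 0.18 for the bright COX6C probe set and from -2.16 to 0.41 for SDHAF3. The cause was not tested.

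With the replicate block, 43 member probe sets passed by day in HE, 67 in SE and 0 in the other comparisons, and the NDUFA5 probe set near 10 turned to 0.0098 in HE. Deviations of same-numbered endometrium pools correlated between -0.27 and 0.24, with 2 of 15 pairs over 0.1, and those of the 2 blastocyst pairs at 0.09 and 0.11, so the numbers were not taken as pairing. In HE the block ended the calls of NDUFS4, NDUFA10, SDHAF4, SDHAF3, ATP5MG (brighter probe set) and ATP5IF1.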
